A study of Mus musculus with 2 samples.

Results

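First-intron open sites are stretches of accessible chromatin that lie inside genes, past the first exon but before the second. They were taken here as DNase-seq peaks of the stricter deposited list whose midpoint falls in the first intron of a protein-coding transcript and in no exon, over 2 kb from every annotated start, and that overlap a strict peak of the other library by at least 1 base. The rule left 5904 of 82498 strict peaks in replicate 1 (7.16%) and 5888 of 88198 in replicate 2 (6.68%). Merged over the libraries these are 5853 locations in 2712 genes, of which 5825 hold a member in both. A first-intron site may also lie in a later intron of another coding transcript. Those that lie in none numbered 4496 in replicate 1 and 4479 in replicate 2. Sites in later introns, chosen by the same rule for bases that are the first intron of no coding transcript, numbered 11471 and 11462 and serve as the comparison.

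The tissue was gastrocnemius, the large calf muscle, from male mice of the hybrid strain B6CASTF1/J aged 14 days. The 2 libraries are biological replicates of a single untreated group and share a donor entry in the labels. Neither label explains its "3x Males", so the number of animals behind a library is not known, and replicate 1 was sequenced on a pair of instrument models. Whole muscle holds vessel, nerve, connective tissue and blood cells beside the fibres, so a site open in few cells and a site weakly open in many cannot be told apart. The 6 muscle markers Acta1, Ckm, Mylpf, Tnnt3, Myod1 and Ttn all had a promoter peak in both libraries, with signals of 3.73 to 12.1 in replicate 1 and 1.27 to 4.73 in replicate 2. Of 14 liver genes, only Apob had a promoter peak in both (0.936 and 1.15).

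DNase I cuts DNA where nucleosomes are displaced, so peaks of cut ends mark promoters, enhancers and insulators, and short protected stretches inside a peak, called footprints, are taken as the trace of a bound protein. The first intron is usually the longest intron of a gene and is a known home of enhancers, some of the best studied muscle enhancers included. In muscle such enhancers are typically read by MyoD-type factors at E-boxes, together with MEF2, SRF and TEAD proteins. The signal of a peak is the deposited value of DNase cutting at that peak. How that value was scaled is not recorded, so signals are set against each other within a library, as a percentile among all of its strict peaks.

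The sequences below are examples picked for their strength, and are not a cross-section of the sites. The sites in Il31ra and Chd8 are among the 5 with the highest mean signal percentile, and the other 5 are the strongest first-intron sites in lists of muscle genes, 1 from each of 5 lists. The strongest site of a gene or list is the one with the highest mean percentile over both libraries. Each is the stretch covered by the peaks of both libraries (mm10, plus strand, letters of the RefSeq genome of that build, thus of the C57BL/6J reference and not of the CAST chromosomes), and capitals mark bases that lie in a footprint in both libraries.
Il31ra, chr13:112578161-112578320: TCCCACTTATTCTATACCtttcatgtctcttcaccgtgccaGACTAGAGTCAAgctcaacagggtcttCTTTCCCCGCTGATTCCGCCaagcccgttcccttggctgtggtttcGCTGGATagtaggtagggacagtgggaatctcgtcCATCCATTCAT
Chd8, chr14:52244481-52244660: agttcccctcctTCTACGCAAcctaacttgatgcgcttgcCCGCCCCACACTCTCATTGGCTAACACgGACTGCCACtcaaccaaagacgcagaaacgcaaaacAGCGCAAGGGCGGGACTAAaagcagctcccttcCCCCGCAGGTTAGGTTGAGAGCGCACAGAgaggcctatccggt
Camk2b, chr11:6030821-6030960: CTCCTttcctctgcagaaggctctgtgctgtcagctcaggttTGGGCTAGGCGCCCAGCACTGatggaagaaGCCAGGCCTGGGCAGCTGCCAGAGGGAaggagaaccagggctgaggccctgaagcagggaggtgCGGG
Mybpc1, chr10:88591221-88591380: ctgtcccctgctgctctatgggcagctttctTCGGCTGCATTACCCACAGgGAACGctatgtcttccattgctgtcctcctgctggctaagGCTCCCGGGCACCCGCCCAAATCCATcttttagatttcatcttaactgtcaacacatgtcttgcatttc
Itga7, chr10:128938601-128938740: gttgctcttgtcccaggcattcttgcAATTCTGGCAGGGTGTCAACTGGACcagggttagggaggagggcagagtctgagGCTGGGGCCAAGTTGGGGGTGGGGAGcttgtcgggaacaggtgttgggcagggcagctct
Pkm, chr9:59659841-59660000: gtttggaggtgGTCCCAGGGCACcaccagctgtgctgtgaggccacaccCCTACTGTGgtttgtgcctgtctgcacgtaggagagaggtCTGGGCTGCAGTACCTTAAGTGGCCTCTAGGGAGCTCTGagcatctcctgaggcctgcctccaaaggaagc
Nfic, chr10:81432961-81433200: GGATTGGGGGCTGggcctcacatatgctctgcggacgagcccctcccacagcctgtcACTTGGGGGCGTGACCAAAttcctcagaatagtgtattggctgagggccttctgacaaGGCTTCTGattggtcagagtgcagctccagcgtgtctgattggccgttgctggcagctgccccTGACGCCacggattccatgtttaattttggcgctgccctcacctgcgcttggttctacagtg

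In Chd8, a chromatin remodeller, both SP/KLF matches (GGGCGG on either strand) lie wholly in footprints. The site in Camk2b, a calcium-dependent kinase of muscle and nerve, has its E-box CAGCTG inside a footprint at bases 85 to 90 of the printed stretch. The E-boxes of the same form in Pkm, the glycolytic pyruvate kinase, and in Nfic, a nuclear factor I gene, lie outside the shared footprints. A match is a description of letters, and binding was not measured.

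First introns carried a higher density of open sites than later introns. Eligible first introns, that is intron bases outside every exon and assembly gap and over 2 kb from any start, add up to 251.6 Mb, and eligible later introns to 594.0 Mb. There were 23.5 and 23.4 first-intron sites per Mb in replicates 1 and 2, against 19.3 and 19.3 in later introns. Since each site must overlap one of the other library, these pairs of values are alike by construction and carry no replicate spread. Without that demand, replicate 1 alone had 8071 first-intron peaks and a density ratio of first to later introns of 1.26, and replicate 2 alone had 8283 and a ratio of 1.16 (mean 1.21 ± 0.0739, SD, n = 2). Both libraries were above 1. An exact sign-flip permutation test of the ratio within each library gave a two-sided p of 0.5, the smallest that 2 libraries allow.

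The excess lay near the start of the gene. Between 2 and 5 kb from the start of the host transcript, first introns had 42.7 and 43.2 peaks per Mb in replicates 1 and 2 taken alone, and later introns 32.0 and 31.9, a ratio of 1.34 ± 0.0141 (SD, n = 2). The ratio was 1.16 ± 0.0430 at 5 to 10 kb and 1.18 ± 0.0836 at 10 to 25 kb, and at 25 to 50 kb it was 1.06 ± 0.0623, within its SD of equality. At 50 to 100 kb first introns were the sparser class in both libraries, with a ratio of 0.894 ± 0.0390, and over 100 kb the ratio was 0.951 ± 0.0233. The bin over 100 kb held 801 and 890 first-intron peaks. The gene model Gm20388, with a first intron of 4384 kb, alone held 280 and 253 over all distances. Its part in the ratio over 100 kb was not tested. With first introns set against the later-intron density of the same distance bin, the ratio fell from 1.26 to 1.14 in replicate 1 and from 1.16 to 1.07 in replicate 2. The classes are placed differently along the gene, and the median first-intron site lay 19.3 kb from its host start in each library, and the median later-intron site 54.6 and 54.5 kb.

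**Figure D1:**
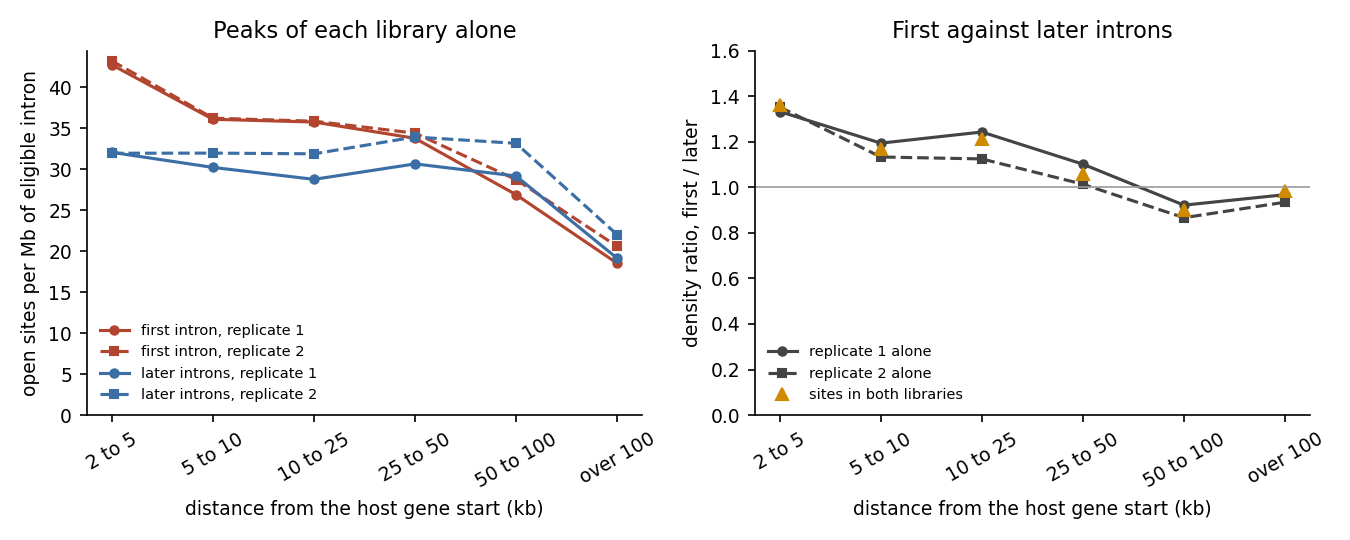
Open sites per Mb of eligible intron (left) and the ratio of first to later introns (right) against the distance from the host gene start in kb, with circles and squares for replicates 1 and 2 taken alone and triangles for sites found in both libraries. The ratio is 1.33 and 1.35 at 2 to 5 kb and 0.922 and 0.867 at 50 to 100 kb.

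Within the same genes the picture was mixed. In 5375 genes with at least 5 kb of each kind of eligible intron, the pooled density of sites was 22.9 per Mb in first and 19.7 in later introns, a ratio of 1.16 (1.22 and 1.11 with each library alone). The first intron was nevertheless the denser in only 1455 of these genes, the later introns in 1977, and 1943 had no site in either (replicate 1). Later introns of these genes are longer, with a median of 33.8 kb against 18.3 kb, and a longer stretch is more often hit at least once. In 1529 genes whose eligible lengths are within 1.5 times of each other, a comparison added after the data were seen, the ratio was 1.02, with 456 genes denser in the first and 483 in later introns. With each library alone it was 1.09 in replicate 1 and 0.964 in replicate 2, so in genes of like lengths the direction was not shared by the libraries.

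Just inside the 2 kb limit, at 2 to 2.2 kb from the nearest start, sites had a median signal of 1.51 and 1.05 (136 and 131 sites). Just outside it, at 1.8 to 2 kb, first-intron sites had 1.47 and 0.968 (158 and 168 sites). In each library the values on either side of the limit lie close together.

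The signal of first-intron sites was that of a middling peak. Its median was 1.36 in replicate 1 (quartiles 0.909 and 2.14) and 0.881 in replicate 2 (quartiles 0.615 and 1.38), which are percentiles 53.2 and 52.4. Promoter peaks found in both libraries, those within 1 kb of a start, had medians at percentiles 83.0 and 79.8. Against later introns the libraries went opposite ways, since the median percentile of first-intron sites was higher by 2.94 points in replicate 1 and the difference was -2.23 points in replicate 2. The mean difference of 0.357 ± 3.65 points (SD, n = 2) is smaller than the spread between libraries. Across the 5853 locations the signals of the libraries had a Spearman rank correlation of 0.709, as a description over sites that share these 2 libraries, and 87.2% of locations were within 2-fold of the median ratio between libraries, which was 1.59.

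At like distances from the host start, up to 100 kb, the mean difference of the libraries turned negative. In replicate 2, first-intron sites lay below later-intron sites in each bin up to 100 kb, by differences of -8.44 points at 2 to 5 kb, -8.46 at 5 to 10 kb and -6.92 at 50 to 100 kb. In replicate 1 the differences over the same bins ran from -2.98 to 0.164 points. Over 100 kb, first-intron sites were the stronger class in both libraries (1.77 and 3.84 points, 625 and 619 first-intron sites). The gene model Gm20388, with a first intron of 4384 kb, alone has 195 sites over all distances, at median percentiles of 68.3 and 63.7. Its part in the difference over 100 kb was not tested. Percentile 90 or above was reached by 2.03% (95% Wilson interval 1.70 to 2.42) and 2.65% (2.27 to 3.09) of first-intron sites, against 1.67% and 4.28% of later-intron sites. The intervals, here and elsewhere, cover counting error only.

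**Figure D2:**
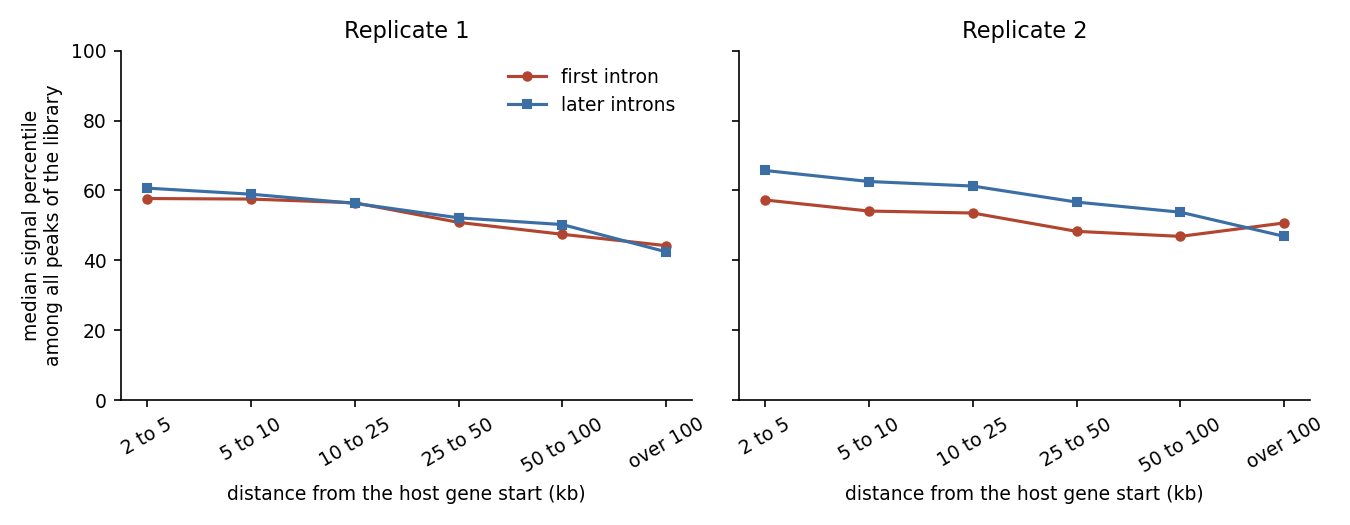
Median signal percentile among all strict peaks of a library against distance from the host gene start in kb, for sites in first and later introns, with replicate 1 on the left and replicate 2 on the right. At 2 to 5 kb the medians are 57.7 and 60.7 in replicate 1 and 57.3 and 65.7 in replicate 2.

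The strongest sites lay in genes of varied function. The first by mean percentile, chr8:121585441-121585720 with signals of 18.1 and 10.7, is placed by the annotation in the first intron of Gm20388, and the nearest coding start is that of Map1lc3b, an autophagosome protein, at 4.80 kb. The intron of that gene model is 4384 kb long and holds 71 whole other coding genes, so its 195 sites (3.33% of all locations) sit among those genes. Also among the strongest was the site in Il31ra, a cytokine receptor gene, at chr13:112578161-112578320. Its signals of 14.0 and 21.5 run against the median ratio, being higher in replicate 2, and the second value is the highest of any first-intron site in that library.

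Next after a further site in Gm20388 came Chd8 (13.4 and 8.37), Acot11, an acyl-CoA thioesterase (12.4 and 7.28), and Ccnd3, the cyclin D3 gene (11.4 and 7.68). Mpp6, a membrane scaffold gene, had 10.4 and 8.31, and Myo18a, an unconventional myosin, 9.70 and 8.12. The site in Dbp, a clock-controlled transcription factor, had 12.6 and 5.76. All of these sites were at or above percentile 95.3 in each library.

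Nearly every site held a footprint, as did most peaks of any kind. Of peaks found in both libraries, 94.7% in replicate 1 and 94.5% in replicate 2 had at least 1 footprint. Of first-intron sites 97.6% (97.1 to 97.9) and 96.3% (95.8 to 96.7) did, and of later-intron sites 97.8% and 97.0%. The difference of first and later introns was -0.207 and -0.727 points, and in 5 bins of signal percentile it was between -1.66 and 0.137 points. A first-intron site held 2.71 and 3.02 footprints on average, over a median width of 180 bases in each library. Footprints covered 20.7% and 21.1% of their bases, against 21.6% and 23.8% in later-intron sites. The gap was wider in replicate 2, the library in which later-intron sites were also the stronger, and the part of signal in it was not tested.

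The sites with most footprints were broad. Footprints were counted in the strongest peak of each library at a location, and not over the merged region. The region in Smarca2, the ATPase of a chromatin remodelling complex, spans chr19:26606261-26607500 over both libraries. Its strongest peaks, which overlap only in part, held 8 and 15 footprints at signals of 2.46 and 1.44. The region in Pcsk6, a proprotein convertase, held 8 and 12, and a site in Gm20388 of only 320 bases held 9 and 10. Those in Hip1, an endocytic adaptor, and Impact, a translation regulator, held 6 and 12, and 4 and 13. In 4 of these 5 sites replicate 2 had the more footprints by at least 4, while its signal percentiles were the lower in all 5. The counted peak of replicate 2 was the wider in Smarca2, Hip1 and Impact and the narrower in Pcsk6. The part of peak width in these counts was not tested.

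First-intron sites resembled distal elements in base content. Their median GC share was 54.4% and 53.8%, and their median ratio of observed to expected CpG was 0.229 and 0.229, against 0.220 and 0.219 in later introns. Promoter peaks had a CpG ratio of 0.799 in each library. CpG-rich sites, with GC over 50% and a CpG ratio over 0.6, made up 4.22% (3.73 to 4.76) and 4.64% (4.13 to 5.20) of first-intron sites, above the 3.02% (2.72 to 3.35) and 3.01% (2.71 to 3.34) of later-intron sites and far below the 75.1% and 74.7% of promoter peaks. Of first-intron sites 15.1% lay within 2 kb of a start found only in the comprehensive GENCODE set or in RefSeq, and of later-intron sites 16.7% and 16.6%. Of the CpG-rich sites it was 40.2% and 37.4% in first and 37.9% and 39.7% in later introns. The stretch printed for Chd8 is CpG-rich, with a GC share of 57.2% and a CpG ratio of 0.779.

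Motifs were counted on either strand in 200-base windows centred on the peak midpoint. The palindromic E-box CAGCTG, the form preferred by MyoD and its relatives, was the commonest of the 14 searched in first-intron sites. It stood in 31.4% (30.3 to 32.6) and 31.0% (29.8 to 32.2) of them, above 28.4% (27.5 to 29.2) and 27.6% (26.8 to 28.4) of later-intron sites, 23.6% and 23.0% of all peaks found in both libraries, and 13.5% and 13.2% of promoter peaks. Up to 25 kb from the host start the gap was wider, with 31.7% and 31.3% against 27.1% and 26.9%. Beyond it the shares were 31.1% (29.3 to 32.9) and 30.6% (28.8 to 32.4) against 28.8% (27.9 to 29.8) and 27.9% (26.9 to 28.9), where the intervals overlap. The libraries describe the same places, so their likeness here is no replication. The asymmetric E-box CAGGTG went the other way, with 14.0% and 13.7% against 15.0% and 14.8%, and its intervals overlap those of later introns.

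The SP/KLF motif GGGCGG, the GC box of many promoters, was found in 11.1% (10.3 to 11.9) and 10.5% (9.76 to 11.3) of first-intron sites and 8.46% and 8.01% of later-intron sites. The ETS motif CCGGAA stood in 4.37% (3.88 to 4.92) and 4.14% (3.66 to 4.68), against 3.13% (2.83 to 3.46) and 3.09% (2.79 to 3.42). Both are promoter-rich motifs, present in 59.4% and 19.0% of promoter peaks of replicate 1. The MEF2 motif, read by the MEF2 partners of MyoD, was rare but commoner in first introns, at 2.95% (2.55 to 3.41) and 2.94% against 2.26% (2.00 to 2.55) and 2.26%, where the intervals just overlap. AP-1 (TGANTCA) stood in 11.3% and 11.0%, higher than in later introns by 1.17 and 0.964 points, with overlapping intervals.

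The core of the CTCF motif, AGGGGGC, was the motif that first introns held less often by the widest margin. CTCF is the insulator protein that anchors chromatin loops. The core stood in 7.23% (6.60 to 7.92) and 7.03% (6.41 to 7.71) of first-intron sites, below 9.08% (8.56 to 9.61) and 8.98% (8.47 to 9.51) of later-intron sites and 10.4% and 10.2% of all peaks found in both libraries. The gap was wider up to 25 kb from the host start, at 7.98% and 7.82% against 12.5% and 12.2%, than beyond it, at 6.21% and 5.95% against 7.81% and 7.76%. Sites with the core were strong in replicate 2, at median percentiles of 66.4 in first and 75.6 in later introns, and less so in replicate 1, at 57.5 and 57.3. Without them the difference of first and later introns in median percentile was 3.61 points in replicate 1 and -1.43 in replicate 2, so the libraries still went opposite ways.

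For the 7 other motifs the intervals of first and later introns, over all distances, overlapped in both libraries. These were TEAD (GGAATG) at 14.2% and 14.2% of first-intron sites, the nuclear factor I half-site (TTGGCA) at 23.3% and 23.7%, RUNX (TGTGGT) at 13.7% and 13.9%, the MEF3 motif (TCAGGTT, which shares 5 letters with CAGGTG) at 2.71% and 2.65%, and the CArG box of SRF at 0.982% and 0.883%. Up to 25 kb from the host start, the TEAD intervals were apart, at 14.4% (13.3 to 15.6) and 14.2% (13.09 to 15.4) against 11.4% (10.4 to 12.6) and 11.9% (10.8 to 13.06), and beyond it the shares were 13.9% and 14.1% against 13.9% and 14.2%. The half-sites of nuclear receptors (AGGTCA) and of the glucocorticoid receptor (TGTTCT) stood in 14.1% and 14.1%, and in 16.8% and 16.7%.

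**Figure D3:**
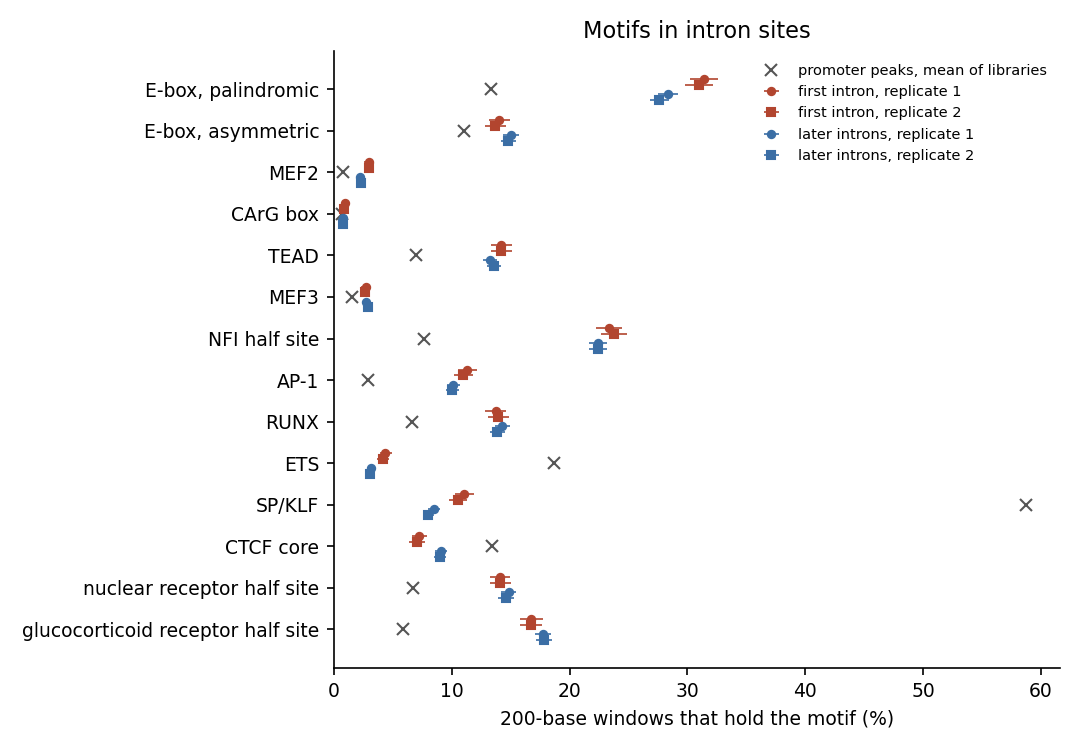
Share of 200-base windows that hold each of 14 motifs, in percent, for first-intron and later-intron sites of each library with 95% Wilson intervals, and for promoter peaks as crosses (mean of the libraries). The palindromic E-box CAGCTG leads in first introns at 31.4% and 31.0%, and the CTCF core is the lower in first introns, at 7.23% and 7.03% against 9.08% and 8.98%.

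Matches lay in footprints to very different degrees. Of CTCF cores in first-intron peaks, 71.5% (67.0 to 75.6) and 78.9% (74.8 to 82.5) had their centre in a footprint, against 81.8% (79.4 to 84.1) and 84.6% (82.3 to 86.7) in later introns. Nuclear factor I half-sites followed with 65.0% and 52.0%, and SP/KLF motifs with 48.5% and 49.2%. For CAGCTG matches it was 27.6% and 29.5%, close to the 28.1% and 30.5% of later introns. For CAGGTG matches it was 38.8% and 36.5%, against 41.7% and 43.2% in later introns. The CAGGTG intervals were apart in replicate 2 only (33.2 to 39.8 against 40.9 to 45.5). Footprints covered 20.7% and 21.1% of all bases of first-intron sites. Matches of MEF2 (13.7% and 6.10%), TEAD (18.9% and 18.3%) and the CArG box (7.84% and 15.8%) were below that share in both libraries. So were those of AP-1 (11.9% and 12.4%) and of the glucocorticoid receptor half-site (11.2% and 11.3%). RUNX matches were in a footprint less often in first introns, at 16.5% (14.1 to 19.3) and 19.3% (16.8 to 22.1) against 23.2% (21.2 to 25.4) and 25.7% (23.6 to 27.8). Footprints also carry the sequence preference of DNase I, whose part in these shares was not tested.

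Most genes that could hold a site held none. Of 10587 coding genes with at least 1 kb of eligible first intron, 2704 held a site in it, or 25.5%. Among the 5915 with 1 to 10 kb it was 10.5%, and among the 4672 with 10 kb or more 44.6%. A single site was found in 1491 genes, 2 to 4 in 978, 5 to 9 in 203 and 10 or more in 32, and this last group held 10.8% of the sites counted per gene.

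Host genes were mostly genes with an open promoter. Of eligible genes with a promoter peak in both libraries 30.4% (29.4 to 31.5) held a first-intron site, against 12.4% (11.2 to 13.6) of the others, and the densities were 26.6 and 9.82 sites per Mb. Open-promoter genes were ahead in each bin of intron length, from 7.65% against 4.17% at 1 to 5 kb to 81.2% against 38.3% over 100 kb. The other genes, some of which have a promoter peak in 1 library, were also sparse in later introns, but less so. In these genes the order of the classes turned. With each library alone, the ratio of first to later density was 1.30 and 1.19 in genes with an open promoter and 0.832 and 0.802 in the others. The ratio was the higher in genes with an open promoter in both libraries, and the exact sign-flip permutation test of that difference again gave its smallest two-sided p of 0.5.

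**Figure D4:**
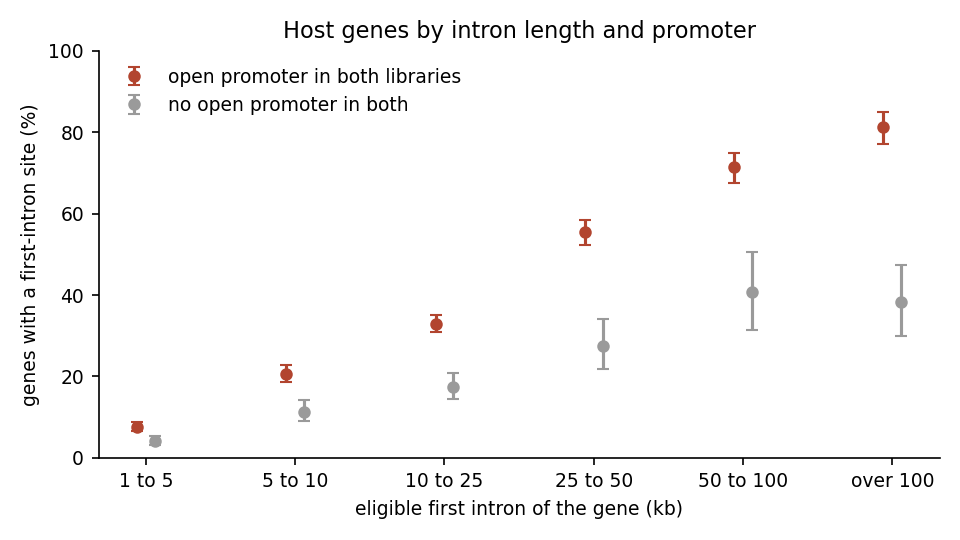
Share of genes with at least 1 first-intron site, in percent with 95% Wilson intervals, against the length of the eligible first intron in kb, for genes with and without a promoter peak in both libraries. Genes with an open promoter are ahead in each bin, with 55.4% against 27.5% at 25 to 50 kb.

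Long introns gave the genes with most sites. After Gm20388 these were Rora, an orphan nuclear receptor of the clock (33 sites in 597 kb), and Arhgap26, a GTPase-activating protein gene (26 in 320 kb). Bcor, the BCL6 corepressor, had 23 in 92.7 kb and none in its later introns, and Ank3, the ankyrin-G gene, 23 in 478 kb. Maml3, a Notch coactivator, had 22, Pde4d, a cAMP phosphodiesterase, 21, the acid-sensing channel gene Asic2 17, and Cuedc1 and the sphingomyelin synthase gene Sgms1 16 each. Asic2 reached its count over 964 kb, at 0.176 sites per 10 kb, whereas Bcor had 2.48 and Cuedc1 2.34 per 10 kb.

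By density, among genes with at least 10 kb of eligible first intron and 5 sites, Rara led with 7 sites in 14.3 kb, or 4.88 per 10 kb. It encodes the retinoic acid receptor alpha, and its later introns were rich too, with 10 and 9 sites in 13.7 kb. Mef2d, a MEF2 factor of muscle, had 5 sites in 11.1 kb against 1 in 10.9 kb of later intron. Creb3l1, a membrane-bound transcription factor, had 7 in 20.4 kb against 1 in 17.6 kb. Nfic had 8 in 24.9 kb against 4 in 10.8 kb, and Tmem267 5 in 13.6 kb with no eligible later intron. All 5 had an open promoter, as did 3729 of all 4672 genes with that much first intron.

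Genes of the muscle fibre hosted first-intron sites more often than eligible genes at large. Over 7 lists of muscle genes together, 67 of 105 eligible members held one, or 63.8% (54.3 to 72.4), beside the 25.5% of all eligible genes. Of these 105 genes 100 had an open promoter, and among all eligible genes with an open promoter the share was 30.4%. The order was the same in shorter and longer introns. With 1 to 10 kb of eligible first intron 18 of 46 held a site (39.1%, beside 10.5% of all genes and 12.4% of those with an open promoter), and with 10 kb or more, 49 of 59 did (83.1%, beside 44.6% and 49.7%). The longer bin has no upper end, and its muscle genes had a median eligible first intron of 49.0 kb. Among all genes with an open promoter the share rose with length, from 33.0% at 10 to 25 kb to 81.2% over 100 kb. The part of length in the gap within that bin was not tested. Per Mb, the longer introns of muscle genes had 28.1 sites, beside 22.1 in all genes and 25.6 in those with an open promoter. The lists were chosen with earlier results of these data known.

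The first introns of these muscle genes were also denser than their own later introns. With each library alone the ratio was 1.42 and 1.27 in the 105 muscle genes, beside 1.30 and 1.19 in all genes with an open promoter and 1.26 and 1.16 over all introns. In the 50 eligible genes of 5 lists for other cell types, of which 35 had an open promoter, it was 1.03 and 0.935. The ratios of the lists cover eligible genes only. Those of all genes with an open promoter (13060, of which 7725 are eligible) and of all introns also take in later introns of other genes. The sites of muscle genes had a median percentile of 60.3 and 56.0, beside 53.2 and 52.4 for all first-intron sites. Their windows held CAGCTG in 33.2% (27.2 to 39.8) and 33.2% (27.1 to 39.8), which takes in the 31.4% and 31.0% of all first-intron sites. CAGGTG stood in 20.4% (15.5 to 26.3) and 19.7% (14.9 to 25.6), above the 14.0% (13.2 to 14.9) and 13.7% (12.9 to 14.6) of all. The other lists were no lower, with CAGGTG in 10 (14.2% to 40.2%) and 8 (10.5% to 34.8%) of their 40 sites.

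Of contractile genes, those of the sarcomere and Z disc, 10 of 17 held a site. For this and the muscle lists below, the share of all eligible genes is 25.5%. The lists differ in length, with median eligible first introns from 4.73 kb here to 79.4 kb, beside 8.04 kb in all eligible genes. Flnc, the actin crosslinker filamin C, had 3 in 3.19 kb, and the strongest had signals of 4.72 and 1.85. Actn2, an alpha-actinin of the Z disc, had 2 in 27.8 kb, at 1.10 and 0.615 for the stronger. Xirp1, an actin-binding repeat protein, had 1, with 2.26 and 3.52. The strongest site of the list was that of Mybpc1, slow myosin-binding protein C, with 4.82 and 2.23, printed above.

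Of genes for the membrane and the dystrophin complex 13 of 17 held a site (76.5%, 52.7 to 90.4). Their eligible first introns are long, with a median of 79.4 kb, and held 0.313 sites per 10 kb. Of all genes with an open promoter and 50 to 100 kb of eligible first intron, 71.3% held a site, which the interval takes in. Ank3 led with 23, followed by Utrn, the dystrophin relative utrophin, with 7 in 161 kb and 2 in 288 kb of later intron, and Ank1 with 4. Dmd, the dystrophin gene, had 2 in 189 kb of eligible first intron and 4 in 2027 kb of later intron. The site in Itga7, the laminin receptor subunit of muscle, was the strongest of the list at 9.27 and 2.77, and its first intron of 3.22 kb held 3 sites.

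Of genes for excitation-contraction coupling 9 of 12 held a site. Camk2b had 5, Bin1, which shapes the T-tubules, had 4 (the strongest at 6.93 and 1.93), and Jph2, which ties T-tubules to the calcium store, had 3 (the strongest at 3.57 and 1.34). The Camk2b site printed above had 4.16 and 2.70. Sln, which encodes the calcium pump regulator sarcolipin, held 1 site although neither library had a promoter peak there.

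Of metabolic genes, 5 of 8 for glycogen and glycolysis held a site. Pkm had 2 (the strongest at 4.24 and 3.12), Fbp2, the muscle fructose-bisphosphatase, had 1 at 2.11 and 2.59, and Hk2, a hexokinase, 1 at 1.52 and 0.440. Of genes for oxidative and fat metabolism 7 of 14 did. Ppargc1b, a coactivator of mitochondrial genes, had 5 (the strongest at 4.67 and 1.34), and the receptor genes Esrrb and Esrrg had 3 each. The strongest site of the list by mean percentile was that of Cs, the citrate synthase gene, at 3.26 and 1.83.

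Of regulators of muscle identity and fibre type 19 of 28 held a site. Tead1, a TEAD factor, had 11 in 145 kb, and its strongest had signals of 5.30 and 2.85 at 4.28 kb from the host start. Rbfox1, a splicing factor, had 11 in 590 kb and Celf2, another splicing regulator, 10 in 530 kb. Tbx15 and Mef2d had 5 each and Hdac4, a repressor of MEF2, 6. The strongest site of the list was that of Nfic, with 9.25 and 4.41, which lies 22.6 kb from the start of its host transcript and 2.08 kb from the nearest annotated start. Of 10 genes of the neuromuscular junction 5 held a site, among them Utrn, Nrg1, the neuregulin gene, with 4 in 970 kb (the strongest at 3.30 and 1.35), and Colq, the collagen tail of acetylcholinesterase, with 2.

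Markers of other cell types had sites too, in 18 of 50 eligible genes (36.0%, 24.1 to 49.9), beside 25.5% of all eligible genes. With 10 kb or more, 16 of 26 did (61.5%, 42.5 to 77.6), beside 44.6% of all genes with that much first intron. Both intervals take in the share of all genes. Of 15 eligible genes of endothelium and smooth muscle 6 held one, including Erg (6 sites), Cspg4 (4) and Tek (3), and of 12 fibroblast genes 4 did. The first-intron site of Meox1, at 7.12 and 3.62, had the highest mean percentile (91.4) among those named from these lists. Of 5 blood and macrophage genes only Csf1r did, of 12 neuronal genes 7, led by Rbfox3 with 5, and of 6 liver genes none. The neuronal genes have long introns, with a median of 192 kb, and held 0.0626 sites per 10 kb, beside 0.231 for all eligible genes. The muscle lists ran from 0.0974 for the neuromuscular junction over 0.297 for oxidative metabolism to 0.725 for the sarcomere, and the blood list had 0.660.

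**Figure D5:**
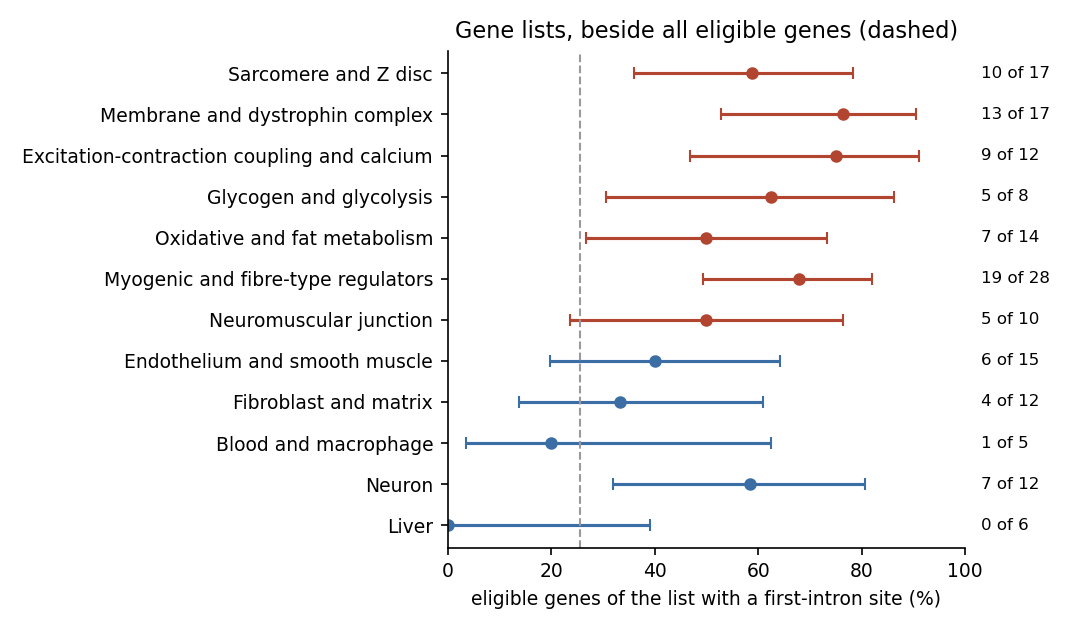
Share of eligible genes with at least 1 first-intron site, in percent with 95% Wilson intervals, for 7 muscle lists (red) and 5 lists of other cell types (blue), with the counts at the right and the 25.5% of all eligible genes as a dashed line. The lower end of the interval is above that line for 6 of the 7 muscle lists and for the neuronal list.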

How the data were processed

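The authors deposited, per library, a strict and a permissive peak list, footprints and an FDR track on mm10. Per the file headers each derives from its own library's alignments. The sources used here name neither aligner nor callers. Peak values are the deposited signal, of unstated scaling, and read depth is unknown. The footprint p-value threshold is constant at 0.01 as deposited. The strict list (fewer peaks) was used. Introns came from GENCODE M21 (basic set), sequence from RefSeq GRCm38, the build of mm10. Densities, medians and shares with 95% Wilson intervals were computed per library in Python 3.11.15 with NumPy 2.4.6 and pandas 2.3.3, and checked on simulated annotation with known answers. First and later introns were compared within each library, where an exact test over 2 libraries cannot go below a two-sided p of 0.5. Members, gene lists and motifs were chosen with earlier results of these data known.

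Named genes are hosts of the 10 strongest sites, the 10 genes with most sites, the 5 densest, the 5 sites with most footprints, and up to 3 genes with most sites per list. The strongest site of each muscle list was named for its sequence, and Dmd, Sln, Tbx15 and Hdac4 after their values were seen. Some items that the rule selects are not reported here. Alternatives are given in the closing section. FDR tracks were not used here.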

Additional observations from a re-analysis of the deposited data

How the results depend on the processing

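The density ratio of first to later introns stayed above 1 under all alternatives run, 2 of them added after the data were seen (the comprehensive annotation with RefSeq starts, and leaving out introns that hold 3 or more whole other coding genes). It was 1.14 over 10 kb from every start and 1.16 to 1.26 without 1 replicate. The distance-matched ratio was 1.04 for peaks at or above the median signal and 1.05 over 10 kb. The number of sites was 10445.5 (mean of libraries) with the permissive list, 2479.5 at or above the median signal, 3220 over 10 kb and 8071 to 8283 without 1 replicate. The share of host genes was 34.4%, 13.4% and 31.8% under the same first 3 settings, 29.0% over 5 kb, 23.7% with a reciprocal overlap of 50% and 29.5% to 31.4% without 1 replicate. Eligible genes differ between distance settings.

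The difference in median percentile, small beside its spread, reversed to -1.47 at or above the median signal, -0.224 over 5 kb, -0.719 over 10 kb and -0.290 without introns that span other genes. By distance it was -5.71 ± 3.87, -4.93 ± 4.99, -3.78 ± 5.57, -4.84 ± 5.00 and -4.85 ± 2.93 (SD, n = 2) in the 5 bins up to 100 kb. It was 0.0 and 2.70 without 1 replicate. The footprint difference reversed to 0.252 points with the permissive list, ran from -0.399 to 0.397 without 1 replicate, and was -0.0925 at or above the median signal and -1.26, -0.0718 and -0.0772 in 3 of the 5 bins of signal. The cause was not tested. The files give no read depth, which limits every count of peaks and footprints. In 100-base windows all 14 motif differences, as means of the libraries, kept their direction. In replicate 2 alone the RUNX difference went from 0.0979 to -0.188 points. Those of CAGCTG (3.23 to 2.13 points), MEF2 (0.684 to 0.317), ETS (1.15 to 0.667), AP-1 (1.07 to 0.599) and TEAD (0.779 to 0.479) were smaller, and that of the CTCF core was wider (-1.89 to -2.12).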
